A study of Gallus gallus with 12 samples.

Results

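The uterus and the magnum of laying hens were compared at 300 days of age, across all measured genes, in 6 of the 12 libraries of the series. The members were taken from the sample titles as the 3 uterus and the 3 magnum libraries of that age. The birds of every group were Lohmann layers, hens (Gallus gallus) of a strain bred for egg production. Both segments were also sequenced at 120 days, with 3 libraries each, and the series title names hens before and during lay. The labels name no genotype, treatment or allele for any group, and do not say whether libraries came from separate hens or whether both segments came from the same hens. What the p-values measure is thus the spread among libraries, part of which may be technical. For the gene calls that spread was estimated over all 12 libraries, those of 120 days included. The study set out to learn what each segment does and how oviduct and egg are protected.

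The magnum and the uterus are stretches of the same tube. In the magnum, gland cells store and release proteins of egg white while the yolk passes. In the uterus, or shell gland, the egg stays longer, and the lining moves calcium and bicarbonate into the fluid from which the shell crystallises, together with the proteins of the shell matrix. Sex steroids drive the growth of these glands as a hen comes into lay.

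The deposited gene table lists 19820 genes as whole numbers. These are read counts that had been brought to a like level in every library, and are called scaled counts. The table names genes by numbered identifiers, of which 18241 are numbered genes and 1579 are labelled as new genes, and does not pair these with symbols. None (0 of 19820) matched the chicken reference table used here. No gene name, role, pathway or sequence is therefore given, and the segment labels could not be checked against magnum or uterus markers. Genes are described as groups, with 4 identifiers as examples.

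The value of 1 read could be estimated in each library from gaps and pile-ups among the low whole numbers. It was 2.267, 2.373 and 1.952 scaled counts in magnum replicates 1 to 3, and 0.875, 0.756 and 0.765 in the uterus. The libraries then held about 27500000, 32600000 and 23100000 gene reads in the magnum and 18900000, 21700000 and 22600000 in the uterus. The magnum libraries thus had more reads, but a scaled count of 10 rested on 4.41, 4.21 and 5.12 reads there, against 11.4, 13.2 and 13.1 in the uterus. Low genes were measured more coarsely in the magnum.

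A handful of genes filled the laying magnum, while the uterus spread its messenger RNA over many. In the magnum, 2, 1 and 3 genes together reached 50% of all scaled counts in replicates 1 to 3, and 90% was reached with 2109, 1530 and 3003 genes. In the uterus, 1085, 1134 and 1084 genes were needed for 50%, and 6117, 6174 and 6044 for 90%. The groups did not overlap in either count. The exact permutation test gave p = 0.1 for both, two-sided, which is the smallest value 3 libraries against 3 allow. The 100 most abundant genes of each library held 74.5% ± 5.91 of the magnum and 20.3% ± 0.651 of the uterus (SD, n = 3 each; exact permutation p = 0.1). Magnum replicate 3 was the most evenly spread of its group, and its leading gene held 36.1% against 49.3% and 53.4%.

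**Figure D1:**
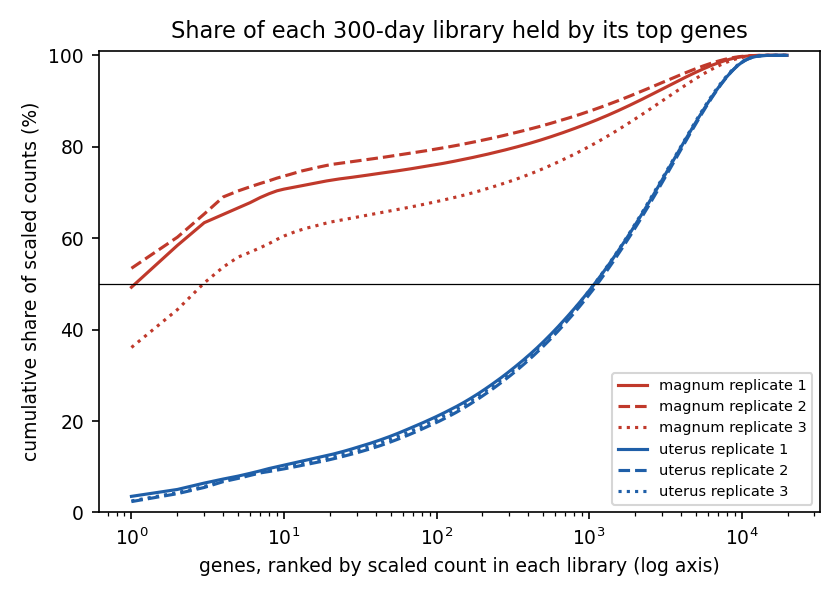
Cumulative share of scaled counts (%) against the number of genes, ranked by abundance within each library on a log axis, with 1 line per 300-day library. The magnum lines pass 50% at 1 to 3 genes and the uterus lines at 1084 to 1134 genes.

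The test called 3593 of 14883 genes, or 24.1%. The uterus was higher for 1916 of them, 12.9% of those tested, and lower for 1677, 11.3%. The median log2 difference, uterus minus magnum, came to 1.86 over the higher genes and -1.26 over the lower, against 0.0173 over all genes tested. At least 64-fold differences were fitted for 88 genes toward the uterus, 4.59% of the higher genes, and for 62 toward the magnum, 3.70% of the lower. Without genes listed at 0 in every library of the lower segment, these were 69 and 54. Differences under 2-fold made up 359 of the higher and 589 of the lower genes. These are levels in whole tissue, in which fewer cells of a type and less RNA per cell cannot be told apart.

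A gene passed at a Benjamini-Hochberg adjusted p below 0.05 in limma's moderated test, run on log2(scaled count + 1). Of the calls, 53.3% were higher in the uterus in the deposited scaling, which sets a typical gene to the same level in every library. That share was 65.8% after upper quartile rescaling, which moved the median of all genes to 0.184. It was 39.6% with the deposited FPKM values, where that median was -0.0664. When each library was divided by its total the share was 98.0% and the median 1.83. The FPKM values thus do not stand for a division by these totals.

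The called genes also account for most of what the magnum held. Genes that were lower in the uterus took up 78.6%, 82.6% and 71.4% of the scaled counts in magnum replicates 1 to 3, and 11.1%, 11.3% and 10.9% of the uterus libraries. The leading magnum gene, which was 1 of them, alone made up 49.3%, 53.4% and 36.1% of those magnum libraries. Genes higher in the uterus took up 21.1%, 22.0% and 23.3% of the uterus libraries, and 1.5%, 1.11% and 1.95% of the magnum. Since these genes were picked by the same comparison, the shares are a description. 

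Among the genes with the highest level per length, taken as mean FPKM, the segments shared many. Of the 10 genes with the highest mean FPKM in the magnum, 8 were lower in the uterus and 2 did not pass. Of the 10 highest in the uterus, 3 were higher there than in the magnum and 7 did not pass. The same 2 genes stood in both lists. Over the 100 highest of each segment, 62 were shared. Of the magnum's 100, 32 were lower in the uterus and 0 higher, and of the uterus' 100, 22 were higher and 3 lower, where 11.3% of all tested genes were lower and 12.9% higher. Choosing genes by their level in 1 of the compared segments favours these directions, so the counts are a description.

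The most abundant uterus gene per length was gene18927, at 230623, 283874 and 231383 scaled counts in uterus replicates 1 to 3. In the magnum it stood at 1351, 1390 and 1157, so that the segments lay far apart and each was tight. By FPKM it ranked first in the uterus, at 13500 ± 1890, and 900 in the magnum, at 71.5 ± 16.9 (SD, n = 3 each). The log2 difference, uterus minus magnum, was 7.58 ± 0.92 (SE, adjusted p = 0.000212). As for the other examples, this SE comes from the fit of all 12 libraries and includes the scatter at 120 days. With the 6 libraries of 300 days alone the adjusted p in limma's test was 5.28e-07. At 120 days the gene was already higher in the uterus, at 90244, 2781 and 9050 scaled counts against 16, 47 and 48 in the magnum, a log2 difference of 8.59 ± 0.92 (adjusted p = 0.00238, and 9.16e-05 to 0.015 over 22 other settings). It was among the 36 genes, 0.242% of those tested, that were higher in the uterus at that age. The differences of the 2 ages were not told apart by the test of the interaction of age and segment (-1.01 ± 1.30, SE, adjusted p = 0.741).

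The other uterus example, gene13558, held 147192, 222722 and 215345 scaled counts in the uterus and 1083, 2065 and 837 in the magnum. Replicate 1 was the lowest uterus library, still far above every magnum library. The log2 difference was 7.28 ± 1.02 (SE, adjusted p = 0.00052), and the gene ranked 3 by FPKM in the uterus and 1372 in the magnum. At 120 days its values ran from 4552 to 139125 in the uterus and from 900 to 7458 in the magnum, and the groups overlapped. That difference did not pass (3.36 ± 1.02, adjusted p = 0.24), but did without uterus replicate 2 of that age (4.58, adjusted p = 0.034). The interaction did not pass either (3.92 ± 1.45, adjusted p = 0.182), but did without uterus replicate 1 at 120 days (5.17, adjusted p = 0.0341).

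The highest level per length in the magnum was that of gene4368, at an FPKM of 463500 ± 177000 there and 68.3 ± 8.99 in the uterus (SD, n = 3 each). Its scaled counts were 30674623, 41356959 and 16238092 in magnum replicates 1 to 3 and 3628, 4435 and 3558 in those of the uterus, a log2 difference of -12.80 ± 1.85 (SE, adjusted p = 0.000611). Its uterus mean was 0.0132% of its magnum mean. At 120 days its scaled counts were 6511037, 4406 and 53990 in the magnum and 3487, 3561 and 2326 in the uterus. Magnum replicate 1 stood far above the rest, and every magnum library was above every uterus library. The difference of -5.24 ± 1.85 did not pass (adjusted p = 0.33), but did without magnum replicate 2 of that age (-7.59, adjusted p = 0.0434). The interaction of -7.56 ± 2.62 did not pass (adjusted p = 0.156), but did without magnum replicate 1 at 120 days (-10.47, adjusted p = 0.000397).

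Second in the magnum by FPKM came gene15635, at 5694721, 5263853 and 2628288 scaled counts there, while uterus replicates 1 to 3 held 857, 1075 and 721. The log2 difference was -12.26 ± 1.86 (SE, adjusted p = 0.000802), and the uterus mean was 0.0195% of the magnum mean. Magnum replicate 3 was the lowest of its group for both genes, and the segments did not overlap. At 120 days the magnum values of gene15635 were 389882, 240 and 2739 against 828, 553 and 577 in the uterus. Magnum replicate 1 stood far above the rest and replicate 2 below all uterus libraries, and the difference did not pass (-3.31 ± 1.86, adjusted p = 0.634). The interaction did not pass for gene15635 (-8.95 ± 2.63, adjusted p = 0.0996), but did without magnum replicate 1 at 120 days (-11.92, adjusted p = 0.000109). How much of the low uterus level of these very abundant genes is reads or RNA carried over from magnum samples was not tested.

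**Figure D2:**
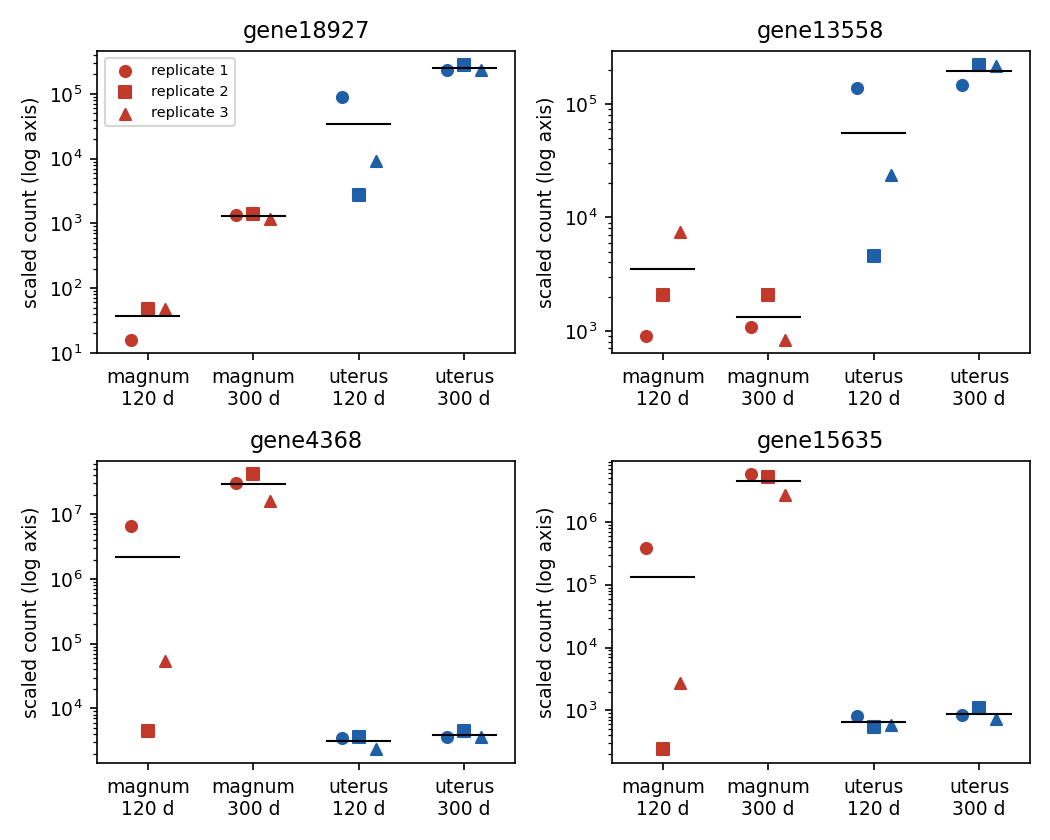
Scaled counts on a log axis of the 4 example genes in all 12 libraries, by segment and age, with a symbol per replicate and a line at the group mean. At 300 days the segments lie far apart for all 4, while the 120-day libraries of the segment with the higher level scatter widely, as from 240 to 389882 for gene15635 in the magnum.

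The direction of the differences went with the level of a gene in its higher segment. Genes were grouped by their mean FPKM in the segment where it was higher. That level comes from the same libraries as the calls, so a large difference can itself place a gene in a high class. The counts by level are thus a description. Among the 2720 tested genes under an FPKM of 1, 364 were higher in the uterus and 69 lower, 13.4% and 2.54%. Among the 67 genes over 1000, 7 were higher and 27 lower, 10.4% and 40.3%. Between them, 797 and 465 of 5719 genes were higher and lower at an FPKM of 1 to 10, 611 and 1005 of 5703 at 10 to 100, and 137 and 111 of 674 at 100 to 1000. Under 1, 84.1% of the calls were higher, against 53.3% of all calls. This was 88.0% against 65.8% after upper quartile rescaling and 74.7% against 39.6% with FPKM, while after division by library totals it was 98.6% against 98.0%, with 98.3% at 1 to 10. The excess toward the magnum over 1000 held after upper quartile rescaling and with the FPKM values (21.9% of the calls higher in each), and turned to 62.3% higher after division by library totals. At 10 to 100 the balance turned to 52.5% higher after upper quartile rescaling, and to 98.4% after division by totals. At 1 to 10, 63.2% of the calls were higher, but 49.4% with FPKM, and at 100 to 1000, 55.2%, but 47.8% with FPKM. The coarser measurement of low genes in the magnum moves with this pattern, and its part in it was not tested.

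**Figure D3:**
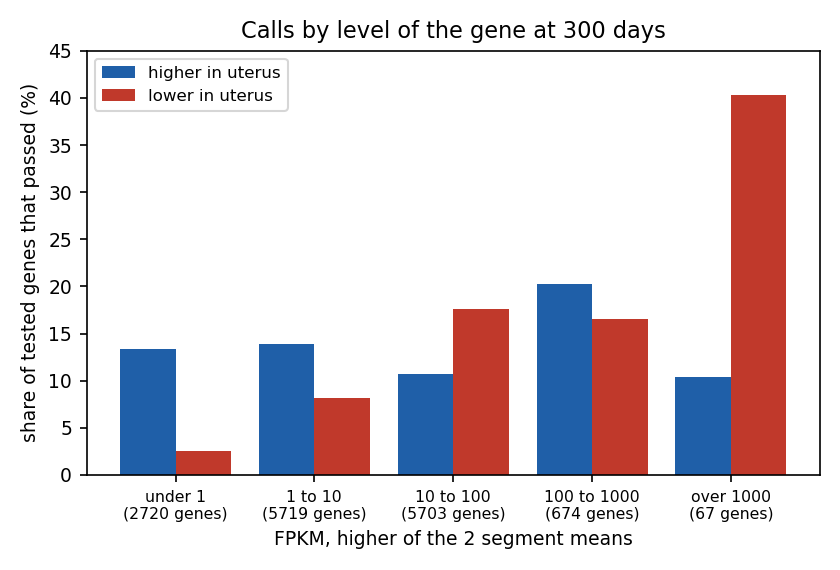
Share of tested genes (%) that were higher (blue) or lower (red) in the uterus at 300 days, by the mean FPKM of the gene in its higher segment. The share of lower genes goes from 2.54% under an FPKM of 1 to 40.3% over 1000. The level classes and the calls come from the same libraries.

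**Figure D4:**
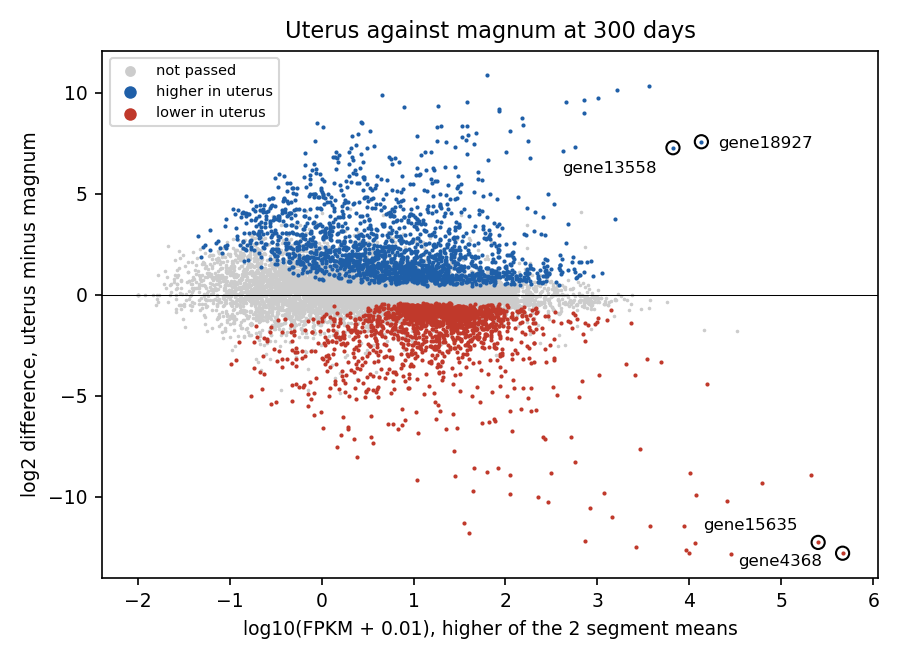
The log2 difference, uterus minus magnum at 300 days, of each tested gene against log10(FPKM + 0.01) in its higher segment, with genes that passed in blue and red and the 4 examples circled. The genes with the highest FPKM, gene4368 and gene15635, stand at -12.80 and -12.26, and gene18927 at 7.58.

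Some genes were listed at 0 throughout one segment. All 3 magnum libraries listed 3397 genes of the table at 0, all 3 uterus libraries 3093, and 2645 were at 0 in all 6. In the magnum a listed 0 means no read, but in the uterus, where 1 read is worth less than 1 and values are truncated, it can hide a read. Among the tested genes, 136 were at 0 in the whole magnum and 52 in the whole uterus. Such genes could enter the test only through their values in other libraries, those of the younger age included. Of the genes higher in the uterus, 87 were at 0 in the whole magnum, with uterus means of 2.67 to 636.7 scaled counts and a median of 26.0. Of the genes lower in the uterus, 20 were at 0 in the whole uterus, with magnum means of 12 to 2886 and a median of 58.7. A count of 0 allows up to 3 reads per library, which sets a mean floor of 6.59 scaled counts for magnum libraries and 2.40 for uterus libraries, for counting error only. Against it, the gene with the highest uterus level of the 87 was at least 96.6-fold higher in the uterus. If its uterus zeros hide no read, the gene with the highest magnum level of the 20 was at least 1204-fold lower. A hidden read would make that bound smaller, and could lower the count of 144 that follows. With such genes at their bound, 255 genes were at least 16-fold higher and 144 at least 16-fold lower, and the medians were 1.79 and -1.26. The fitted counts at that size were 304 and 150.

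Gene length and the kind of identifier also went with the calls. The tested genes were cut into 5 classes of like size by length. The shortest class held 353 higher and 171 lower genes of 2978, and the longest 432 higher and 455 lower of 2977. The lower share thus ran from 5.74% to 15.3%, while the higher share ran from 11.9% to 14.5%. With the FPKM values the same order was seen for the lower genes (7.99% to 23.5%), and the higher genes ran the other way (13.1% to 10.8%). After division by library totals the lower share was 1.68% in the shortest and 2.25% in the longest class. The tested genes over an FPKM of 1000 had a median length of 803 bases, and those at 1 to 10 one of 4142. Length was not separated from level or from the number of reads per gene. Of the 1114 new-gene loci tested, 186 were higher in the uterus and 76 lower, 16.7% and 6.82%, against 12.6% and 11.6% of the 13769 numbered genes. Of the calls among new-gene loci 71.0% were higher, against 51.9% among numbered genes. These shares were 76.5% and 64.9% after upper quartile rescaling and 66.7% and 37.8% with FPKM, but 95.8% and 98.2% after division by library totals. Their level and length were not separated from their kind.

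At 300 days libraries of the uterus lay closer together than those of the magnum. The SD of a gene's log2 values had a median of 0.206 in the uterus and 0.392 in the magnum at that age, where at 120 days it was 0.402 and 0.325. At 300 days it was larger in the magnum for 75.6% of the tested genes. Across genes, which are not independent replicates, the log2 values correlated at 0.964 to 0.975 within the uterus, 0.945 to 0.952 within the magnum and 0.838 to 0.862 between them. Of 1645 tested genes with a fitted difference of at least 4-fold, 278 did not pass. These had a median SD of 1.20 in the magnum and 0.581 in the uterus, against 0.581 and 0.391 for the 1367 that passed. The spread enters the test, so a larger SD among genes that did not pass follows from the calling and is a description. All 3 libraries of one segment lay above those of the other for 44.1% of the tested genes, which is 6562. Nearly all called genes were among them, 1902 of the 1916 higher and 1665 of the 1677 lower, where 23.6% of all tested genes had every uterus library on top and 20.4% every magnum library. The calls compare these same libraries, so that overlap of the lists follows from the calling and is a description. A further 2995 genes whose libraries did not overlap did not pass. The coarser steps of the magnum values at 300 days move with the wider spread, and their part was not tested.

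The genes called at 300 days mostly lay on the same side of 0 at 120 days, and closer to it. The 120-day libraries are other libraries, but the spread of each gene came from 1 fit of all 12. Of the 1916 genes higher in the uterus at 300 days, 79.2% were above 0 at 120 days, where 49.3% of all tested genes were, and the median log2 difference was 0.36. Of the 1677 lower genes, 85.6% were below 0, against 50.6% of all, and the median was -0.34. The size at 120 days followed the size at 300 days. The 88 genes at least 64-fold higher at 300 days had a median of 2.64 at 120 days against 7.27 at 300, and those 16- to 64-fold higher 1.41 against 4.73. On the magnum side, the 62 genes at least 64-fold lower had a median of -3.41 at 120 days against -8.43 at 300, and the next 88 genes -1.76 against -4.67. In the classes of at least 64-fold, 69 higher and 54 lower genes were not at 0 throughout their lower segment at 300 days. For the rest the fitted size rests on the 1 added before taking log2. Genes that did not pass at 300 days had a median of -0.00591 at 120 days. The smaller difference at 120 days includes the choice of genes by their 300-day value, which favours a smaller value in other libraries, and how much that accounts for was not tested. These values rest in part on the replicate 1 libraries of 120 days. Without magnum replicate 1 the medians over the higher and lower genes were 0.234 and -0.221, and 70.0% and 76.6% lay on the same side of 0. Without replicate 1 of both segments they were 0.159 and -0.175, with 64.6% and 71.6%. For the genes at least 64-fold higher the median was 1.71 without magnum replicate 1, 1.47 without uterus replicate 1 and 0.784 without both, and for those at least 64-fold lower it was -1.42 without magnum replicate 1 and -1.55 without both.

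**Figure D5:**
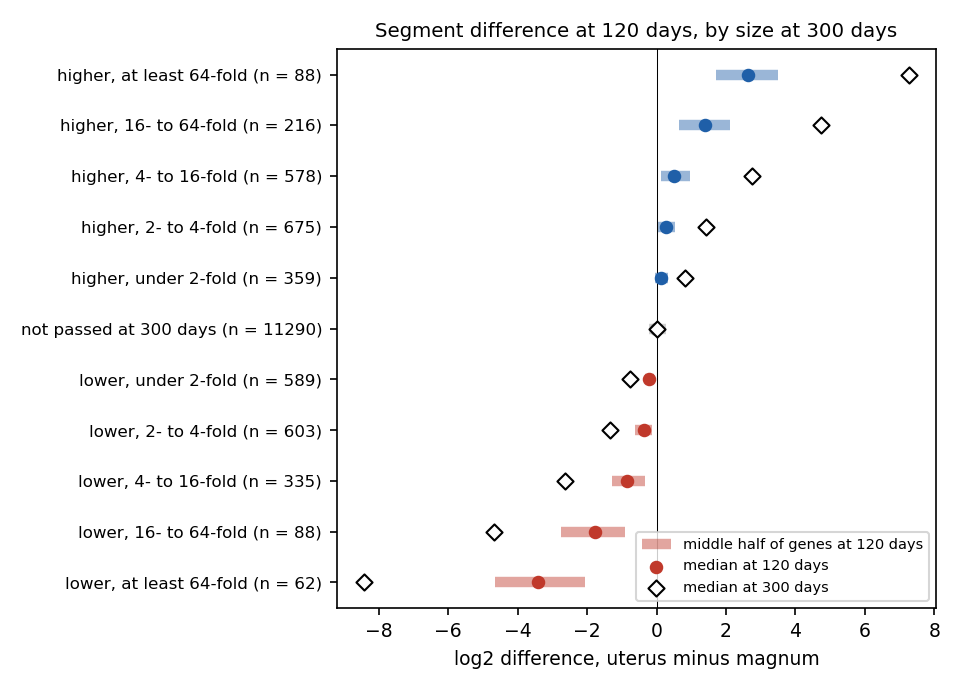
Median log2 difference, uterus minus magnum, at 120 days (filled points, with bars over the middle 50% of the genes) and at 300 days (diamonds), for classes of genes by their difference at 300 days. The 120-day medians follow the order of the 300-day medians and lie closer to 0 in each class of called genes.

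The levels behind the largest differences can be set beside those at 120 days. Among the 304 genes at least 16-fold higher in the uterus, the median level in scaled counts was 25.8 for the 120-day magnum and 3.67 for the 300-day magnum, and 104.0 and 242.0 for the uterus at the same ages. The 3.67 lies below the mean floor of 6.59 scaled counts for a listed 0 in the magnum, and 60 of the 304 genes were at 0 in that whole group. Among the 150 at least 16-fold lower, the median was 231.0 and 1080 in the magnum, and 19.0 and 12.3 in the uterus. Of these, 19 were at 0 in the whole uterus at 300 days. Both sets were chosen by their 300-day difference, which favours a low 300-day level in the lower segment and a high one in the higher segment. Over all tested genes the 4 medians lay between 405.0 and 463.0. The 150 genes together held 38.9% of magnum replicate 1 at 120 days, 0.777% and 1.63% of replicates 2 and 3, and 71.5%, 76.1% and 61.6% of the magnum at 300 days. Magnum replicate 1 at 120 days thus lay nearer by this share to the laying magnum than the other libraries of its group. Most of that share was 1 gene, gene4368, which held 26.0% of that library. In magnum replicates 1 to 3 at 300 days gene4368 held 49.3%, 53.4% and 36.1%. What remained of the 38.9% for the other genes of the set was still above the 0.777% and 1.63% of the whole set in replicates 2 and 3. The share does not show how each of these other genes lay. The 304 genes held 3.67%, 0.665% and 1.19% of the uterus replicates at 120 days, again highest in replicate 1, and 7.61%, 8.16% and 8.90% at 300 days. The magnum and uterus age comparisons share these 300-day libraries, so these levels are given side by side with no test.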

How the data were processed

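Total RNA of both segments was made into mRNA libraries with a Smarter kit, per the labels' protocols. The submitters' processing notes list TopHat2 2.0.8, Cufflinks 2.0.2, Trimmomatic 0.32, FastQC 0.11.6 and GATK 3.8, without roles. The genome build, annotation and counting were not given in the sources used, so shared reads of near-identical or overlapping genes could not be assessed.

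The deposited gene values were taken as scores (scaled counts), since median-of-ratios size factors over the 12 deposited columns lay between 0.974 and 1.01. The second deposited table holds FPKM. How its columns were brought to a level was not given. At a pseudocount of 1 their median log2 difference over all tested genes was -0.0664, against 1.83 after division by library totals. The value of 1 read was the step whose truncated multiples gave the highest likelihood of the values up to 150. In uterus replicates 1 and 2 at 300 days the next best steps, 0.467 and 0.430, were 13.4 and 8.62 lower in log-likelihood. The product of the 12 steps was 1.04, near the 1 that such scaling gives.

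limma 3.58.1 (R 4.3.3), two-sided and with a mean-dependent prior, was fitted to genes with at least 10 scaled counts in at least 3 libraries. The fit held all 12 libraries in 4 groups (8 residual degrees of freedom) and was tested on simulated data. There 36.5% of 2-fold, 80.8% of 4-fold and 88.6% of 8-fold changes were recovered, and 4.64% of the calls were unchanged genes. The simulation gave each gene the same spread in all groups and changed no low genes. It changed only 52, 78 and 70 of 14463 genes by 2-, 4- and 8-fold, where 24.1% of the tested genes were called in the data. It therefore does not cover the wider spread of the magnum, the low genes or so large a share of differing genes. Fold changes of low genes depend on the pseudocount of 1, which is less than 1 read in the 300-day magnum. Genes fitted at least 16-fold higher and lower numbered 304 and 150. They numbered 255 and 144 with genes at 0 at their bound, and 141 and 93 with a pseudocount of 10. Other steps used Python 3.11.15, NumPy 2.4.6, pandas 2.3.3, SciPy 1.17.1 and matplotlib 3.10.9.

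The comparison, the lists and the tests were chosen with earlier results of these data known. Example genes had to pass, differ at least 2-fold, have non-overlapping libraries and no 0 at 300 days. The 2 with the highest mean FPKM in each direction were taken. None (0) of the 79 symbols in 4 marker and pathway lists matched an identifier, so no list was tested. No 2 libraries were identical.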

Additional observations from a re-analysis of the deposited data

How the results depend on the processing

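The 300-day calls, the 4 examples and the 120-day medians were recomputed in 23 other settings, the calls by level, length and kind of identifier in 8, and the composition of each segment in 4. No called gene switched direction, except that after division by library totals 731 of the genes called lower were called higher. That setting gave 12362 higher and 247 lower genes, 818 and 71 at least 16-fold, and a median of -1.22 at 120 days for the genes called lower. With FPKM at a pseudocount of 1 the 120-day medians were 0.21 for the genes called higher and -0.216 for those called lower. The FPKM values gave 2609 lower genes with a pseudocount of 1 and 2649 with 0.1. The counts of at least 16-fold differences were 45 higher and 61 lower with FPKM at a pseudocount of 1, 144 higher at 0.1, 141 higher and 93 lower with scaled counts at a pseudocount of 10, and 182 higher with a filter of 100 in 3 libraries. In FPKM the 10 most abundant genes held 14.2% of the uterus in place of 9.98%, and 299 genes in place of 1101 reached 50%. FPKM also divides by length, and the part of this in these changes was not tested.

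Leaving out each of the 12 libraries gave 1329 to 2228 higher and 1133 to 1795 lower genes, and kept 68.6% to 99.1% and 66.5% to 99.0% of the calls. Without both replicate 1 libraries at 120 days, chosen after seeing the data, 2131 were higher and 1849 lower. The 6 libraries at 300 days alone gave 2213 and 1808. The 4 example genes passed in the same direction in all 23 settings, with adjusted p of 4.64e-07 to 0.00156 for gene18927, 1.19e-05 to 0.00329 for gene13558, 8.42e-07 to 0.00371 for gene4368 and 7.32e-07 to 0.00463 for gene15635. They were chosen for passing in the main fit, and the settings reuse the same libraries, so this is a description.

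With the replicate number as a block within each age, 2648 genes were higher and 2123 lower. Deviations of same-numbered libraries correlated at 0.198, 0.216 and 0.0838 at 300 days, where 1 pair was below the 0.1 asked of every pair, and at 0.361, 0.591 and 0.39 at 120 days, where unlike numbers gave -0.398 to 0.0381. Each library correlated best with its own number at both ages, a hint of pairing from the data and not the design, which is clearer at 120 days. The correlations of an age share libraries and are not independent. Segments from the same hen cannot be told apart here from shared handling of a replicate number. No 120-day or interaction call of the 4 examples changed under the block. Over 22 other settings the interaction passed in 3 each for gene13558, gene4368 and gene15635, and in 0 for gene18927. For each of the former genes these were division by library totals, the fit without both replicate 1 libraries at 120 days, and the leave-out named above. The 120-day difference passed in 1 of the 22 for gene13558 and gene4368, and in 0 for gene15635. Low genes rest on few magnum reads, which limits their precision.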
